A study of Mus musculus with 18 samples.

Results

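A set of 8 secreted or cell-surface proteins of blood and lymph vessel growth were followed across 6 groups of cultures of 4T1, a mammary tumour cell line from BALB/c mice. They are 4 ligands of the vascular endothelial growth factor (VEGF) family (Vegfa, Vegfb, Vegfc and Pgf), 2 angiopoietin-like proteins (Angptl2 and Angptl4) and the 2 neuropilins (Nrp1 and Nrp2). The genes were taken by symbol, and 8 of the 34591 gene symbols in the count files matched. RNA was sequenced in 18 libraries, 3 in each group. In the first experiment, parental cells in fresh medium received recombinant human TGFb1 at 2 ng/mL for 24 h or were left untreated for 24 h. In the second, cells carrying a stable lentiviral Wisp1 construct or the empty vector (EV), each selected with puromycin, were grown on collagen type I-coated dishes or on tissue-culture plastic until subconfluent. Wisp1, also called Ccn4, is a secreted matricellular protein. Whether each stable line was a pool or 1 clone, and whether replicates were separate cultures, is not given in the sources used here, so the p-values measure the spread between these libraries, which may be technical.

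VEGF-A binds the receptor tyrosine kinases VEGFR1 (Flt1) and VEGFR2 (Kdr) on endothelial cells and is the principal driver of blood vessel sprouting. VEGF-C acts mainly through VEGFR3 (Flt4) on lymphatic endothelium, while VEGF-B and placental growth factor (Pgf) bind Flt1. The neuropilins are co-receptors that bind VEGF ligands and class 3 semaphorins, and angiopoietin-like proteins are secreted relatives of the angiopoietins that act through other receptors.

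The libraries held between 37552858 and 94401699 counts assigned to genes. All 8 genes passed the filter on low counts in every comparison, and the lowest count of any of them in any library was 20, for Angptl4. Levels are given as counts per 1000000 assigned counts (CPM) scaled by the trimmed mean of M-values (TMM), and a gene is called changed where the Benjamini-Hochberg adjusted p of edgeR's quasi-likelihood test, over all genes tested, was below 0.05. Wisp1 itself, the check of the construct, averaged 1088 ± 33.0 CPM in the Wisp1 line and 15.3 ± 1.08 CPM in the EV line on collagen, and 957 ± 94.9 CPM in the Wisp1 line and 51.7 ± 18.2 CPM in the EV line on plastic (SD, n = 3 each). Epithelial markers (Epcam, Cdh1, Krt8, Krt18, Krt7 and Krt14) summed to between 3245 and 5811 CPM in the 18 libraries. Of 7 endothelial markers, 6, among them Pecam1 and Cdh5, were under 1 CPM in every library, with Egfl7 the exception.

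Per kilobase of annotated exon, where levels can be set between genes, Angptl2 was at 49.9 ± 2.03 CPM per kb in untreated parental cells, above Vegfb at 34.2 ± 6.64 and Nrp2 at 31.6 ± 2.81 CPM per kb (SD, n = 3 each). Nrp1 and Vegfa lay lower, at 14.7 ± 4.90 and 12.3 ± 2.47 CPM per kb. Pgf was at 5.39 ± 2.97, Vegfc at 2.89 ± 0.619 and Angptl4 at 0.356 ± 0.245 CPM per kb. In TGFb1-treated cells Vegfa was at 77.8 ± 9.91 CPM per kb, by these exon lengths the highest level of the 8 genes in that group. Vegfc was at 15.0 ± 3.85 CPM per kb there. Each length is the union of exons over the annotated transcripts, 10380 bp for Nrp2, 3339 bp for Angptl2 and 3523 bp for Vegfa. It can exceed the length of the transcripts made in these cells, so the place of Nrp2 in the order depends on the length used. Exon lengths come from an annotation of another build than the one the counts were made on, so the order between genes is approximate where levels are close. In that annotation no exon of the 8 genes overlaps an exon of another gene, apart from 37 bp that Nrp1 shares with Mir1903, a gene with a count of 0 in all 18 libraries.

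**Figure D1:**
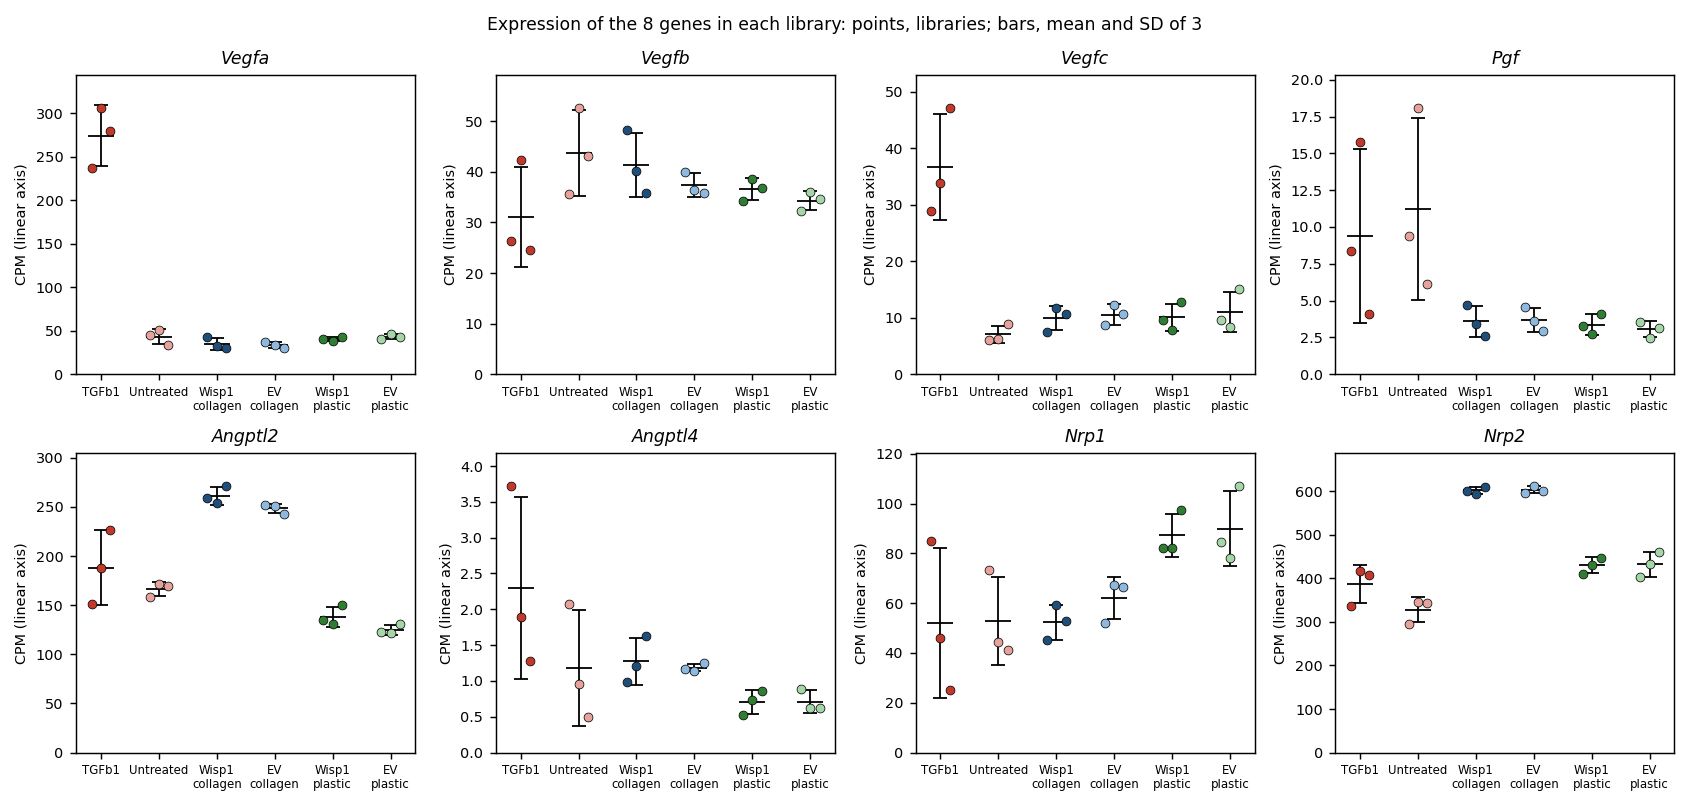
Levels of the 8 genes in CPM (linear axes from 0) in each of the 18 libraries, one panel per gene and one column per group; points are libraries and bars give the mean and SD of 3. Vegfa and Vegfc stand apart in the TGFb1 group, with lowest values of 236.8 and 28.97 CPM against highest values of 50.88 and 15.13 CPM in any other group, and Angptl2 and Nrp2 are higher on collagen than on plastic in both lines.

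The comparison of TGFb1-treated with untreated parental cells asks how 24 h of TGFb1 changed these transcripts. In the main fit, without pairing of same-numbered libraries, Vegfa and Vegfc rose 6.26-fold and 5.12-fold. The other 6 genes were not called in it. Thus 2 of 8 were called, both higher, where 11.1% of the 14874 genes tested were called in either direction, 6.14% higher and 4.92% lower. A fit with a replicate block, described below, called 6 of 8, where 44.9% of the genes tested were called. Vegfa had 236.8, 306 and 279.2 CPM in TGFb1-treated cultures, against 45.0, 50.88 and 33.76 CPM in untreated ones. Every treated library lay above every untreated library, and above all 12 libraries of the stable lines. The log2 fold change of Vegfa was 2.65 ± 0.19 (SE) with an adjusted p of 0.0015, and the adjusted p did not exceed 0.017 in the 12 alternative analyses. The increase was present in each of the 3 same-numbered pairs, at 5.26-fold, 6.02-fold and 8.27-fold.

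Vegfc, the lymphangiogenic ligand, had 28.97, 33.87 and 47.17 CPM in TGFb1-treated cultures, against 6.13, 6.27 and 8.83 CPM in untreated ones. The groups did not overlap, and here too no library of any other group reached the treated range. Its log2 fold change was 2.36 ± 0.24 (SE), with an adjusted p of 0.0038 and, over the 12 alternatives, no more than 0.030. The 3 pairs gave 4.72-fold, 5.40-fold and 5.34-fold. Vegfa and Vegfc were the only 2 of the 8 genes whose treated and untreated libraries did not overlap, where 30.7% of the genes tested had non-overlapping groups.

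The promoters of these 2 genes are shown because the main fit called no other gene of the 8 in this comparison. The fit with the replicate block called 6 of the 8. Each is the 300 bases from 250 upstream to 50 downstream of a RefSeq start (GRCm38.p6), printed 5′ to 3′ on the gene's own strand, and capitals mark matches to CAGAC, the SMAD binding element, on either strand. Vegfa is at chr17:46032328-46032627 on the minus strand, the most upstream of its 2 listed starts, and Vegfc at chr8:54077282-54077581 on the plus strand.
Vegfa: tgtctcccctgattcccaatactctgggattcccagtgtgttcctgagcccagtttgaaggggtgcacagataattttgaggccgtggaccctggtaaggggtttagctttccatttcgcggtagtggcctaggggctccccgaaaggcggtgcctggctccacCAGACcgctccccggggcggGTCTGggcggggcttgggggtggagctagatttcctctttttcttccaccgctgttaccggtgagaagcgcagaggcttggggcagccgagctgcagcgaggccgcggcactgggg
Vegfc: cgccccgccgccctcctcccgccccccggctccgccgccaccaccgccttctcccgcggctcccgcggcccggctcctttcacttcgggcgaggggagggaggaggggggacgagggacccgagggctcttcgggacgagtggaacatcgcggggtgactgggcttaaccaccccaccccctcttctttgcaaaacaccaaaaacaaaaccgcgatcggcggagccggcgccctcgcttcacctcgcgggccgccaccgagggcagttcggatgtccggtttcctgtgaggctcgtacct
The Vegfa window held 2 matches and the Vegfc window 0, while 49.6% of the 32851 promoters of this length held at least 1. Neither window held ACGTG, the core of the hypoxia response element, on either strand, which 19.6% of promoters held. TGANTCA, the AP-1 site, was absent from both and present in 7.81%. The second Vegfa start, at chr17:46025114-46025413, held 2 matches to CAGAC and 1 to ACGTG. No match overlapped one of another motif, and a match says only that these letters are present.

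The other VEGF ligands did not follow Vegfa and Vegfc. Vegfb had 26.43, 42.36 and 24.49 CPM in TGFb1-treated cultures, against 35.70, 52.67 and 43.13 CPM in untreated ones, so the groups overlapped (log2 fold change -0.51 ± 0.25 SE, adjusted p = 0.27). Pgf had 8.38, 15.78 and 4.08 CPM in treated cultures, against 9.38, 18.09 and 6.14 CPM in untreated ones. Its libraries differed more within a group than between the groups (log2 fold change -0.27 ± 0.57 SE, adjusted p = 0.84). In all 3 same-numbered pairs, however, the treated library was the lower one, by 1.35-fold, 1.24-fold and 1.76-fold for Vegfb and by 1.12-fold, 1.15-fold and 1.51-fold for Pgf.

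Angptl4, an inhibitor of lipoprotein lipase, had 3.72, 1.90 and 1.28 CPM in treated cultures, against 2.08, 0.96 and 0.50 CPM in untreated ones. The groups overlapped, yet each treated library exceeded its same-numbered untreated one, by 1.79-fold, 1.98-fold and 2.56-fold (log2 fold change 0.94 ± 0.61 SE, adjusted p = 0.42). Angptl2, a secreted glycoprotein linked to inflammation, had 151, 187.6 and 226.4 CPM in treated cultures, against 158.7, 171.2 and 169.5 CPM in untreated ones. The treated values surrounded the untreated ones (adjusted p = 0.59). Nrp2 had 336.5, 416.2 and 407.8 CPM in treated cultures, against 294.3, 345.5 and 344.1 CPM in untreated ones, and was higher in each pair by 1.14-fold, 1.20-fold and 1.19-fold (adjusted p = 0.30). Nrp1 had 84.88, 45.82 and 25.28 CPM in treated cultures, against 73.25, 44.30 and 41.33 CPM in untreated ones. Its pairs went in different directions, higher in 2 and lower in 1 (adjusted p = 0.97).

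Same-numbered TGFb1 and untreated libraries deviated together from their group means, and a fit blocked on these numbers had 2 residual degrees of freedom. In it, 6 of the 8 genes were called, 4 higher and 2 lower, where 44.9% of all genes tested were called, 22.4% higher and 22.5% lower. Beside Vegfa and Vegfc, Angptl4 rose 2.01-fold (adjusted p = 0.0028; range over the alternatives 0.0028 to 0.74) and Nrp2 rose 1.16-fold (adjusted p = 0.0086; range 0.0086 to 0.62). In the same fit Vegfb was 1.45-fold lower (adjusted p = 0.0051; range 0.0051 to 0.60) and Pgf was 1.25-fold lower (adjusted p = 0.045; range 0.045 to 0.95). Angptl2 and Nrp1 were not called with the block. With all 18 libraries in 1 fit without a block, where 32.4% of genes tested were called, Vegfb (adjusted p = 0.043) and Nrp2 (adjusted p = 0.032) joined Vegfa and Vegfc.

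**Figure D2:**
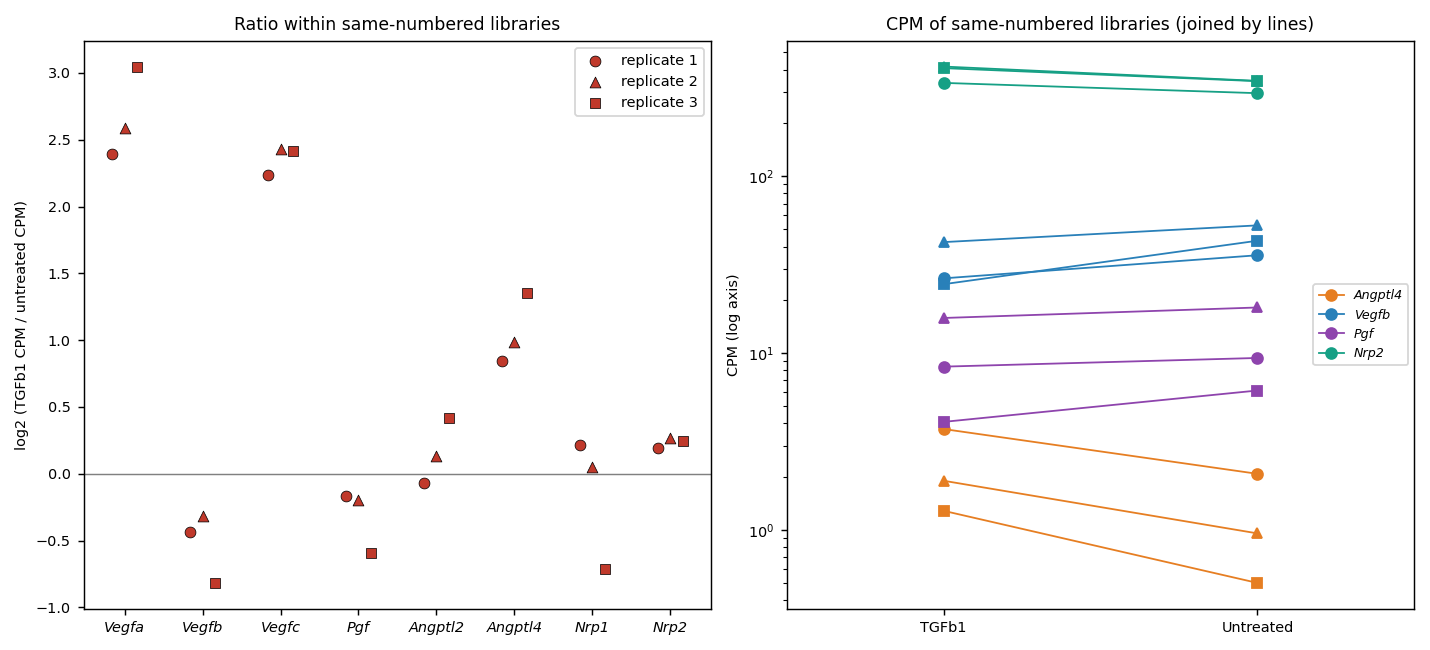
Left, log2 ratio of TGFb1 to untreated CPM within same-numbered libraries for the 8 genes, with one symbol per replicate number; right, CPM on a log axis of Angptl4, Vegfb, Pgf and Nrp2 in TGFb1 and untreated libraries, lines joining those of the same number. The ratios of Vegfa and Vegfc all lie above 2 on the log2 scale, those of Angptl4 and Nrp2 are above 0 in 3 of 3 pairs, and those of Vegfb and Pgf are below 0 in 3 of 3 pairs.

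Of the receptors for these ligands, Flt1 averaged 42.5 ± 2.60 CPM in TGFb1-treated cultures and 60.5 ± 9.38 CPM in untreated ones (SD, n = 3 each), and was not called (adjusted p = 0.059), while the fit with the replicate block called it 1.43-fold lower (adjusted p = 0.0015). Kdr, the main receptor of VEGF-A, had between 0 and 8 counts in any of the 18 libraries, and Flt4, the receptor of VEGF-C, between 0 and 1, and neither passed the filter. In the list of VEGF receptors, angiopoietins, Tie receptors and Figf (VEGF-D), 1 of 4 tested genes was called. This was Figf, a further ligand of Flt4, at 0.651 ± 0.171 CPM in treated and 0.203 ± 0.0741 CPM in untreated cultures (3.14-fold, adjusted p = 0.044). The call ended when any 1 of the 6 libraries was left out (adjusted p = 0.056 to 0.18) and without the filter (adjusted p = 0.060).

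Of 11 tested genes listed as other angiogenic growth factors, 6, Edn1 and Efna1 among them, were called higher and 0 lower. Among all genes tested, 6.14% were called higher and 4.92% lower. The median log2 fold change of the list was 0.93, against -0.01 over all genes tested. This list, like the others, was chosen with earlier results of these data known, so its count and median are only a description. Pdgfa, Pdgfb and Pdgfc, ligands of the platelet-derived growth factor receptors, rose 3.58-fold (adjusted p = 0.0022), 4.31-fold (adjusted p = 0.0034) and 4.94-fold (adjusted p = 0.0074). Pdgfb averaged 268 ± 76.3 CPM in treated and 61.5 ± 4.83 CPM in untreated cultures (SD, n = 3 each). Of 6 tested genes listed as angiogenesis inhibitors, 3 were called, all higher. Vash1, Vash2 and Col18a1 were tested and not called (adjusted p = 0.10, 0.076 and 0.34). Whether each listed gene inhibits vessel growth here was not tested. The call of Sparcl1 (5.29-fold, adjusted p = 0.010) ended without TGFb1 replicate 2 (adjusted p = 0.054). That of Serpinf1, which encodes pigment epithelium-derived factor (4.75-fold, adjusted p = 0.020), ended without any 1 of the untreated libraries or TGFb1 replicate 2 (adjusted p = 0.057 to 0.092). That of Thbs1, thrombospondin 1 (2.68-fold, adjusted p = 0.042), ended when any 1 library but TGFb1 replicate 3 was left out (adjusted p = 0.059 to 0.17). With the replicate block all 6 tested genes of the inhibitor list, Vash2 among them, were called higher. In the growth factor list 8 were called higher and 1 lower. In that fit 22.4% of all genes tested were called higher and 22.5% lower.

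Genes of the hypoxia response, a known regulator of Vegfa and Angptl4, gave 0 called higher and 1 lower of 12 tested, with a median log2 fold change of -0.04. The called gene was Egln3, a prolyl hydroxylase that is itself induced by hypoxia, at 15.1 ± 4.24 CPM in treated and 94.4 ± 8.47 CPM in untreated cultures (6.31-fold lower, adjusted p = 0.0024, SD, n = 3 each). With the replicate block 1 of the 12 was called higher and 3 lower, where 22.4% of all genes tested were called higher and 22.5% lower. Of 7 tested genes of the peroxisome proliferator-activated receptors (PPARs), known regulators of Angptl4, and their targets, only the lipid droplet protein gene Plin2 was called (2.49-fold higher, adjusted p = 0.0072). All 4 TGF-beta response genes rose, among them Pmepa1 at 3.63-fold (adjusted p = 0.0014). Among class 3 semaphorins, plexins and Gipc1, a list that includes ligands and signalling partners of neuropilins, 1 of 11 was called higher and 1 lower. Of all genes tested, 6.14% were called higher and 4.92% lower. Plxnd1 was at 50.3 ± 3.64 CPM in treated and 18.7 ± 8.07 CPM in untreated cultures (2.66-fold, adjusted p = 0.046), a call that ended without untreated replicate 2 or any 1 of the TGFb1 libraries (adjusted p = 0.075 to 0.15). Sema3e, a ligand of Plxnd1, was 3.51-fold lower (adjusted p = 0.020), and that call ended without replicate 2 or 3 of either group (adjusted p = 0.051 to 0.089).

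Markers of other cell types moved in part with TGFb1. Of all genes tested, 6.14% were called higher and 4.92% lower. Of 6 tested fibroblast and pericyte markers, 3 were called higher. They were Col1a1, Pdgfrb and Rgs5, at means of 8.59, 1.70 and 0.354 CPM in treated cultures. The summed level of all 8 markers was between 57.0 and 71.8 CPM in treated and between 36.0 and 59.5 CPM in untreated libraries. Most of that sum was Pdgfra, not called (adjusted p = 0.87), at 52.5 ± 14.4 CPM in treated and 48.0 ± 12.9 CPM in untreated cultures (SD, n = 3 each). Of 3 tested leukocyte markers, Csf1r was called higher and Ptprc lower, and the sum of all 6 was between 7.61 and 12.5 CPM in treated and between 4.13 and 12.3 CPM in untreated libraries. Cd3e was at 0 in all 18 libraries. Of 3 tested endothelial markers 0 were called in either direction, at sums of 3.62 to 5.77 CPM in treated and 3.89 to 6.12 CPM in untreated libraries. The part of these markers in the changes of Vegfa and Vegfc was not tested. Less RNA per cell and fewer cells that express a gene cannot be told apart in these cultures.

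The comparison of collagen-coated dishes with plastic was made within each stable line. On collagen, Angptl2, Nrp2 and Angptl4 rose and Nrp1 fell in both lines, and Vegfa fell in the EV line. In the EV line 5 of 8 genes were called, 3 higher and 2 lower, where 36.5% of the 13953 genes tested were called, 19.2% higher and 17.3% lower. In the Wisp1 line 4 of 8 were called, 3 higher and 1 lower, where 40.4% of the genes tested were called, 21.3% higher and 19.1% lower. Without EV plastic replicate 2 the count in the EV line was 3, with Angptl4 and Vegfa lost, where 29.7% of genes tested were called. The calls of the 8 genes and of the related lists are to be read against a background in which a large share of all genes changed.

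Angptl2 had 258.6, 253.9 and 271.1 CPM on collagen and 134.4, 130.6 and 149.7 CPM on plastic in the Wisp1 line. In the EV line it had 252.1, 250.5 and 242.9 CPM on collagen and 122.2, 121.7 and 130.6 CPM on plastic. No collagen library came near a plastic one. The fold change was 1.93 in the Wisp1 line (log2 0.95 ± 0.05 SE, adjusted p = 2.6e-08) and 2.03 in the EV line (log2 1.02 ± 0.05 SE, adjusted p = 1.8e-08), and it was called in each of the 13 alternatives in both lines. Parental cells lay between, with Angptl2 means of 188 CPM in TGFb1-treated and 167 CPM in untreated cultures. These were other experiments with other cells, so that order is a description.

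Nrp2, which binds VEGF-C and semaphorin 3F among other ligands, had 601.4, 594.7 and 611.1 CPM on collagen and 410.8, 431.5 and 447.3 CPM on plastic in the Wisp1 line. In the EV line it had 596.7, 612 and 601.5 CPM on collagen and 402.7, 434 and 459.9 CPM on plastic. The libraries on collagen fell within a narrow band that lay above all plastic libraries in both lines. The fold change was 1.43 in the Wisp1 line (log2 0.51 ± 0.04 SE, adjusted p = 1.9e-06) and 1.42 in the EV line (log2 0.51 ± 0.04 SE, adjusted p = 2.0e-06), called in each of the 13 alternatives in both lines. Nrp1, which binds VEGF-A and semaphorin 3A among other ligands, went the other way. It had 45.13, 59.27 and 52.74 CPM on collagen and 82.09, 82.34 and 97.28 CPM on plastic in the Wisp1 line, and 52.17, 67.31 and 66.55 CPM on collagen and 84.55, 78.26 and 107 CPM on plastic in the EV line. The groups did not overlap in either line. Nrp1 was one of 4 genes of the 8 whose collagen and plastic libraries did not overlap in the Wisp1 line, where 51.5% of genes tested had such groups, and one of 5 in the EV line, where 48% did. It was 1.64-fold lower on collagen in the Wisp1 line (log2 -0.71 ± 0.14 SE, adjusted p = 0.0020) and 1.42-fold lower in the EV line (log2 -0.51 ± 0.14 SE, adjusted p = 0.014). The fit over all 18 libraries did not call it in either line (adjusted p = 0.14 in the Wisp1 line and 0.32 in the EV line), and in the EV line the call also ended without EV collagen replicate 1 (adjusted p = 0.052) and without the filter (adjusted p = 0.054).

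The promoters of Angptl2 and Nrp2, which were called in every alternative, are printed in the same way (RefSeq, GRCm38.p6, 300 bases, own strand, capitals for CAGAC or its complement). Angptl2 is at chr2:33215711-33216010 and Nrp2 at chr1:62703067-62703366, both on the plus strand.
Angptl2: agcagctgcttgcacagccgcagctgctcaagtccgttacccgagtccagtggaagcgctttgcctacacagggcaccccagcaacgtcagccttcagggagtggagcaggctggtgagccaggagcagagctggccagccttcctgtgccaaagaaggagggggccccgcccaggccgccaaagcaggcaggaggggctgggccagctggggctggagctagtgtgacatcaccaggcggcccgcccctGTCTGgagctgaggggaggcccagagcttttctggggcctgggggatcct
Nrp2: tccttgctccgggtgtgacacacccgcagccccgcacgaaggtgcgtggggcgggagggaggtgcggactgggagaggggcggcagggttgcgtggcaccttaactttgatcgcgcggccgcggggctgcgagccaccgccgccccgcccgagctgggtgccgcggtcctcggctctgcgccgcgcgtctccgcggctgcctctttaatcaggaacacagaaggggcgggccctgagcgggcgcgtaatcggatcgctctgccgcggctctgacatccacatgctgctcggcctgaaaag
The Angptl2 window held 1 match to CAGAC and the Nrp2 window 0, and neither held ACGTG or TGANTCA. In all, 7 of the 8 genes had an entry among the RefSeq promoters. Nrp1 and each of 2 starts of Pgf held 1 match to CAGAC, and Vegfb held 0.

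Angptl4 had 0.98, 1.20 and 1.63 CPM on collagen and 0.53, 0.74 and 0.86 CPM on plastic in the Wisp1 line. In the EV line it had 1.17, 1.14 and 1.24 CPM on collagen and 0.89, 0.62 and 0.62 CPM on plastic. The groups did not overlap in either line, at counts of 61 to 116 on collagen and 20 to 49 on plastic. The fold change was 1.77 in the Wisp1 line (adjusted p = 0.013) and 1.73 in the EV line (adjusted p = 0.014). The call ended without Wisp1 plastic replicate 1 (adjusted p = 0.060) and without Wisp1 collagen replicate 3 (adjusted p = 0.052) in the Wisp1 line, without EV plastic replicate 2 (adjusted p = 0.064) in the EV line, and in both lines in the fit over all 18 libraries (adjusted p = 0.27 in the Wisp1 line and 0.34 in the EV line).

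Among the VEGF ligands, Vegfa had 42.53, 32.07 and 29.78 CPM on collagen and 40.58, 38.63 and 42.76 CPM on plastic in the Wisp1 line, where the groups overlapped and it was not called (log2 fold change -0.19 ± 0.12 SE, adjusted p = 0.21). Without Wisp1 collagen replicate 1 it was called lower (adjusted p = 0.0048). In the EV line it had 37.09, 33.40 and 29.98 CPM on collagen and 40.43, 46.37 and 42.38 CPM on plastic. There the groups did not overlap and Vegfa was 1.27-fold lower on collagen (log2 -0.34 ± 0.12 SE, adjusted p = 0.038). That call ended in 5 of the 6 analyses that left out 1 library, all but the one without EV collagen replicate 1 (adjusted p = 0.052 to 0.13), without the filter (adjusted p = 0.12) and with all 18 libraries (adjusted p = 0.14). The difference between the lines was not called (log2 0.15 ± 0.17 SE, adjusted p = 0.97). Vegfb, Vegfc and Pgf were not called on collagen in either line, with log2 fold changes between -0.03 and 0.31. Vegfb was called higher in the Wisp1 line without Wisp1 collagen replicate 3 (adjusted p = 0.011).

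**Figure D3:**
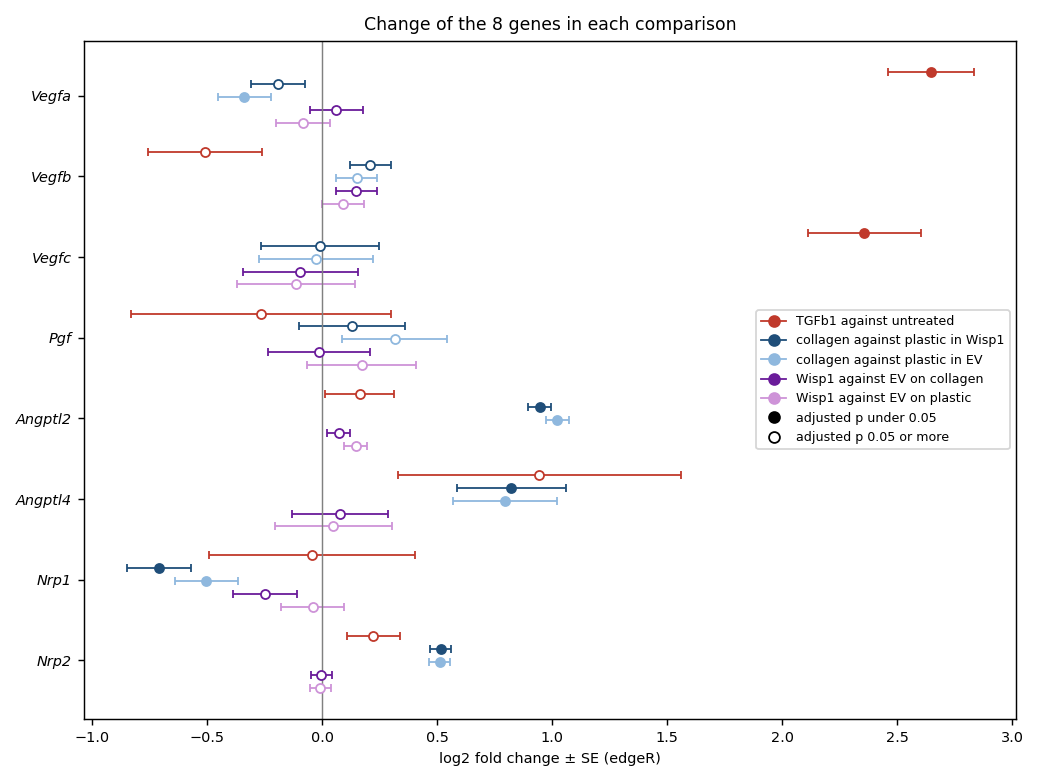
Log2 fold change of the 8 genes with its SE (edgeR) in 5 comparisons; filled points have an adjusted p under 0.05 and open points do not. Vegfa and Vegfc lie far right under TGFb1, at 2.65 and 2.36, Angptl2 lies near 1 on collagen in both lines, the neuropilins move in opposite directions on collagen, and all points for Wisp1 against EV are open.

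Genes of the semaphorin and plexin list changed on collagen as well. Of 10 tested class 3 semaphorins, plexins and Gipc1, 5 were called higher and 2 lower in the Wisp1 line, and 5 higher and 1 lower in the EV line. Of all genes tested, 21.3% were called higher and 19.1% lower in the Wisp1 line, and 19.2% higher and 17.3% lower in the EV line. The median log2 fold changes of the list were 0.24 and 0.25, against 0.01 and 0.00 over all genes tested. Plxnd1 rose 2.69-fold in the Wisp1 line (adjusted p = 6.3e-08) and 2.16-fold in the EV line (adjusted p = 3.7e-07). Plxna4, a plexin that signals with neuropilins, rose 2.72-fold in the Wisp1 line (adjusted p = 2.6e-05) and 3.38-fold in the EV line (adjusted p = 4.4e-06). Sema3e was 1.35-fold lower in the Wisp1 line (adjusted p = 1.4e-04) and 1.32-fold lower in the EV line (adjusted p = 2.6e-04), and was not called in the fit over all 18 libraries (adjusted p = 0.19 and 0.25). Flt1 averaged 48.6 ± 2.06 CPM on collagen and 37.2 ± 0.620 CPM on plastic in the Wisp1 line, and 49.2 ± 0.785 CPM on collagen and 38.4 ± 1.51 CPM on plastic in the EV line (SD, n = 3 each). It rose 1.33-fold in the Wisp1 line (adjusted p = 1.2e-05) and 1.30-fold in the EV line (adjusted p = 2.2e-05). In its list all 4 tested genes were called higher in the Wisp1 line and 2, Flt1 and Angpt2, in the EV line. Of these calls, that of Angpt1 in the Wisp1 line ended without Wisp1 plastic replicate 3 (adjusted p = 0.18) and without Wisp1 collagen replicate 1 (adjusted p = 0.23). That of Angpt2 ended in the Wisp1 line without the same libraries (adjusted p = 0.059 and 0.073), and in the EV line without any 1 of the plastic libraries or EV collagen replicate 1 (adjusted p = 0.057 to 0.16). Neither was called with all 18 libraries (adjusted p = 0.14 to 0.46), while Flt1 was called in each of the 13 alternatives in both lines.

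Of 9 tested other angiogenic growth factors, 2 were called higher and 2 lower on collagen in each line. Of all genes tested, 21.3% were called higher and 19.1% lower in the Wisp1 line, and 19.2% higher and 17.3% lower in the EV line. The list counts given here are to be read against these shares. Edn1, the vasoconstrictor endothelin 1, was 8.06-fold lower in the Wisp1 line (adjusted p = 1.3e-08) and 7.30-fold lower in the EV line (adjusted p = 1.8e-08). Efna1, a ligand of Eph receptors, rose 2.16-fold in the Wisp1 line (adjusted p = 6.7e-07) and 2.01-fold in the EV line (adjusted p = 1.4e-06). Ecm1 rose 1.71-fold in the Wisp1 line (adjusted p = 2.6e-06) and 1.90-fold in the EV line (adjusted p = 5.0e-07). Among 5 tested genes listed as angiogenesis inhibitors, 2 were called higher and 1 lower in the Wisp1 line, and 1 higher and 1 lower in the EV line. Thbs1 was 1.80-fold lower in the Wisp1 line (adjusted p = 0.0029) and 2.03-fold lower in the EV line (adjusted p = 0.0011). Col18a1, the precursor of endostatin, rose 1.60-fold in the Wisp1 line (adjusted p = 5.8e-04) and 1.52-fold in the EV line (adjusted p = 0.0014). Vash2 was the other gene of this list called higher in the Wisp1 line, with an adjusted p of 0.027 to 0.45 over the alternatives. Hypoxia response genes gave 0 higher and 2 lower of 12 in each line. Of 6 tested PPAR factors and targets, 4 were higher and 1 lower in the Wisp1 line, and 4 higher and 2 lower in the EV line. Of the 4 TGF-beta response genes, 3 were lower in each line, with Skil, a transcriptional co-repressor of SMAD signalling, 1.27-fold lower in the Wisp1 line (adjusted p = 2.5e-04) and 1.27-fold lower in the EV line (adjusted p = 2.6e-04).

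**Figure D4:**
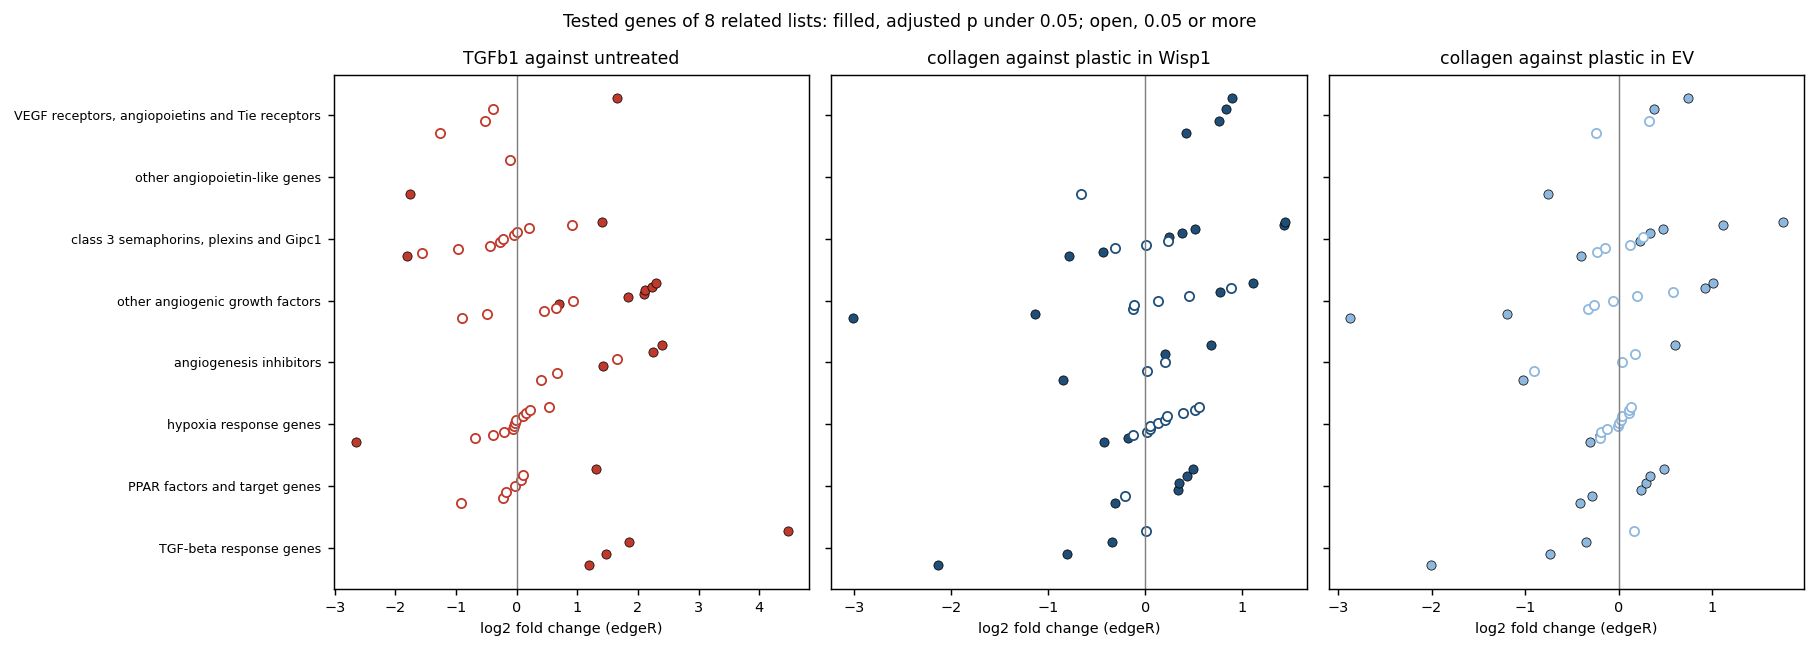
Log2 fold change (edgeR) of the tested genes of 8 related lists under TGFb1 (left) and on collagen in the Wisp1 line (middle) and the EV line (right); filled points have an adjusted p under 0.05. Under TGFb1 the filled points among growth factors and inhibitors all lie to the right and the filled hypoxia gene, Egln3, lies to the left at -2.66; on collagen the filled points of growth factors, inhibitors, semaphorins with plexins, and PPAR genes lie on both sides of 0.

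Markers of other cell types differed between the substrates too. The summed level of the 8 fibroblast and pericyte markers was between 26.7 and 33.3 CPM on collagen and between 17.0 and 19.3 CPM on plastic in the Wisp1 line, and between 25.3 and 30.5 CPM on collagen and between 17.0 and 22.8 CPM on plastic in the EV line. Most of that sum was Pdgfra, called higher, at 28.6 ± 3.53 CPM on collagen and 16.5 ± 1.37 CPM on plastic in the Wisp1 line, and 26.3 ± 2.58 CPM on collagen and 17.9 ± 3.09 CPM on plastic in the EV line (SD, n = 3 each). Of 4 tested markers of this list 1 was called higher and 1 lower in the Wisp1 line (median log2 fold change -1.10), and 1 higher and 2 lower in the EV line (median -0.43). Those called lower were Col1a2 in both lines (log2 fold change -1.58 in Wisp1 and -1.43 in EV) and Col3a1 in the EV line (-1.56). Of all genes tested, 21.3% were called higher and 19.1% lower in the Wisp1 line, and 19.2% higher and 17.3% lower in the EV line. The 6 leukocyte markers summed to between 8.15 and 9.24 CPM on collagen and 4.67 and 6.28 CPM on plastic in the Wisp1 line, and to between 6.28 and 8.31 CPM on collagen and 4.68 and 6.14 CPM on plastic in the EV line. The part of these markers in the changes of Angptl2 and the neuropilins was not tested. The 7 endothelial markers summed to between 4.87 and 5.67 CPM on collagen and 5.39 and 5.67 CPM on plastic in the Wisp1 line, and to between 4.33 and 5.49 CPM on collagen and 5.30 and 5.82 CPM on plastic in the EV line.

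The comparison of Wisp1 with EV cells asks whether the construct changed these genes. The Wisp1 transcript was 70.7-fold higher in the Wisp1 line on collagen (adjusted p = 2.1e-06) and 18.5-fold higher on plastic (adjusted p = 3.1e-05). Of the 8 genes, 0 were called on either substrate by edgeR, where 0.0717% of genes tested were called on collagen and 0.0143% on plastic. At an unadjusted p under 0.05, edgeR gave 0 of the 8 on collagen and 1 on plastic, where 5.07% and 5.89% of all genes tested were under it, and DESeq2 called 0 on either substrate. The log2 fold changes of the 8 genes lay between -0.25 and 0.15 on collagen and between -0.12 and 0.17 on plastic. Nrp2 was at 602 ± 8.27 CPM in Wisp1 and 603 ± 7.81 CPM in EV cells on collagen, and 429.9 ± 18.3 CPM in Wisp1 and 432 ± 28.6 CPM in EV cells on plastic (SD, n = 3 each).

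Same-numbered Wisp1 and EV libraries also deviated together, at correlations of 0.47, 0.15 and 0.34 on collagen and 0.12, 0.21 and 0.22 on plastic. Whether same-numbered libraries were grown together is not given in the sources used here, so this pairing is assumed. With the replicate number as a block within each substrate 1 gene of the 8 was called on each. On collagen it was Nrp1, which was 1.19-fold lower in Wisp1 than in EV cells (log2 -0.25 ± 0.04 SE, adjusted p = 0.0014, from 0.0014 to 1 over the alternatives), where 2.57% of genes tested were called with the block, 1.63% higher and 0.939% lower, and 0.0287% were called lower without it. All 3 pairs were lower, by 1.16-fold, 1.14-fold and 1.26-fold. On plastic it was Angptl2, 1.11-fold higher in Wisp1 than in EV cells (log2 0.14 ± 0.03 SE, adjusted p = 0.021, from 0.021 to 1 over the alternatives), where 3.15% of genes tested were called with the block, 2.08% higher and 1.08% lower. All 3 pairs were higher, by 1.10-fold, 1.07-fold and 1.15-fold. On collagen Angptl2 was also higher in all 3 pairs, by 1.03-fold, 1.01-fold and 1.12-fold, and was the only gene of the 8 whose Wisp1 and EV libraries did not overlap there, where 9.42% of genes tested did not, but it was not called with the block. Without the block, edgeR called the effect of Wisp1 on collagen minus that on plastic for 0 of the 8 genes. It did so for 0 of all 13953 genes tested. In that fit 0 of the 8 had an unadjusted p under 0.05, where 2.94% of all genes tested were under it. DESeq2 also called 0 of the 8. With the block within each substrate, edgeR called this effect for 0 of the 8 and for 70 of 13953 genes (0.502%). The lowest adjusted p of the 8 over the alternatives was 0.093, for Nrp1. The TGFb1-treated parental cells also carried more Wisp1 transcript, at 425 ± 167 CPM against 22.3 ± 15.7 CPM in untreated cells (18.7-fold, adjusted p = 0.0096, SD, n = 3 each).

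Over the 6 groups, Vegfa and Vegfc spanned the widest ranges of group means, 8.18-fold and 5.18-fold. In the order of group means, the TGFb1 group came first for both, and every later neighbour in the order overlapped the next. Pgf spanned 3.67-fold, with untreated and TGFb1-treated parental cells first at 11.2 and 9.41 CPM and the 4 stable groups between 3.05 and 3.71 CPM. Angptl4 spanned 3.24-fold and Vegfb 1.41-fold, and for these 3 genes all neighbours in the order overlapped. Angptl2 spanned 2.09-fold, with Wisp1 collagen first and EV plastic last, and only TGFb1 with untreated and Wisp1 plastic with EV plastic overlapped among its neighbours. Nrp2 spanned 1.84-fold and Nrp1 1.73-fold, each with a single gap between neighbours, below the collagen groups for Nrp2 and below the plastic groups for Nrp1.

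For the 5 genes whose group means spanned more than 1 on the log2 scale, the most alike of 10491 genes were sought by the root mean square difference of centred log2(CPM + 0.5) means over the 6 groups. The nearest to Vegfa were Jag1 at 0.10, Pdgfc at 0.15 and Igsf11 at 0.18. Vegfc was nearest to Cd109 at 0.087, Fam89a at 0.13 and Npr2 at 0.13, and Angptl2 to Kcnn4 at 0.054, Nfe2l3 at 0.087 and Tnfrsf9 at 0.091. Angptl4 was nearest to B4galt3 at 0.056, Atp6v0d1 at 0.068 and Runx1 at 0.069. The added 0.5 compressed the profile of Angptl4, whose group means lay between 0.71 and 2.30 CPM. The span of Angptl4 was 3.24-fold in CPM but 1.21 on this log2 scale, so these neighbours match the compressed profile. Pgf was nearest to Pisd-ps1 at 0.061, Syt11 at 0.084 and Osgin1 at 0.091. These distances are in log2 units and describe 6 means each.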

How the data were processed

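RNA was poly(A)-selected and prepared with a stranded kit, per the labels' protocols. The authors deposited 1 file per library of raw counts per gene symbol. STAR, BWA, HTSeq, CASAVA, limma, R 3.2.4 and the mouse build mm9 are listed, without roles, per the submitters' processing notes. Which annotation and strand setting the counting used is not given in the sources used here. Rows that name no gene were left out of library sizes: 10.2% to 13.5% of reads without a feature, 1.02% to 2.08% ambiguous and 1.84% to 3.47% not aligned. Libraries held 37552858 to 94401699 gene counts, which limits the precision of low genes such as Angptl4.

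Counts were fitted with edgeR 4.0.16 (R 4.3.3; filterByExpr, TMM, robust quasi-likelihood F test), parental cells over 6 libraries and stable lines over 12 with 4 group means, with Benjamini-Hochberg adjustment and SE = |log2 fold change| / √F. DESeq2 1.42.0, its size factors, other filters, other libraries in the fit, a replicate block and leaving out each replicate were alternatives. The scripts were tested on simulated counts. Same-numbered libraries are taken as paired where the correlation of their deviations from the group means exceeds 0.1 in all 3 pairs. It was 0.79, 0.55 and 0.78 for TGFb1 with untreated, whose titles share codes, 0.47, 0.15 and 0.34 for Wisp1 with EV on collagen and 0.12, 0.21 and 0.22 on plastic.

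All 8 genes are reported, lists by counts and medians with up to 3 called genes of smallest p named. The genes and lists were chosen with earlier results of these data known. Exon lengths (GENCODE M21) and promoters (RefSeq, GRCm38.p6) are of another build than the counts.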

Additional observations from a re-analysis of the deposited data

How the results depend on the processing

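The number of the 8 genes called under TGFb1 was 2 in every alternative except 2: it was 4 with all 18 libraries in 1 fit and 6 with the replicate block, where 32.4% and 44.9% of all genes tested were called. For Wisp1 against EV it was 0 in all alternatives but the replicate block within each substrate. That block gave 1 on collagen and 1 on plastic, where 2.57% and 3.15% of all genes tested were called. For the effect of Wisp1 on collagen minus that on plastic the number was 0 throughout. The same block called 0.502% of all genes tested for that effect. On collagen in the EV line the count of 5 became 3 without the filter on low counts and 2 with all 18 libraries. Of all genes tested, 20.9% and 10.8% were called in these fits. The count was 3 to 4 when 1 replicate was left out, where 27.3% to 32.6% of all genes tested were called. In the Wisp1 line the count of 4 became 2 with all 18 libraries, where 13.8% of all genes tested were called. It was 3 to 5 when 1 replicate was left out, where 31.5% to 38.5% of all genes tested were called. The cause of these differences was not tested. Same-numbered libraries of the 2 substrates did not all deviate together (0.12, -0.13 and 0.28 in EV, -0.03, -0.07 and -0.01 in Wisp1). The replicate block over the 4 groups left the counts at 5 in EV and 4 in Wisp1. In that fit 40.8% and 44.7% of all genes tested were called.

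Of 680 values of the 8 genes under the alternatives, 607 kept direction and call, 47 changed sign, 16 lost and 10 gained a call. The sign changes were all of log2 fold changes that were not called. Vegfc on collagen in the Wisp1 line was 0.0047 in DESeq2 and 0.0047 with the replicate block over the 4 groups. Leaving out 1 replicate moved the log2 fold change under TGFb1 between -0.86 and 0.26 for Pgf and between -0.60 and 0.29 for Nrp1. On collagen it moved between -0.21 and 0.26 for Vegfc in EV, and in Wisp1 between -0.15 and 0.20 for Vegfc and between -0.14 and 0.31 for Pgf. For Wisp1 against EV on collagen the ranges were -0.11 to 0.16 for Vegfa, -0.23 to 0.082 for Vegfc, -0.28 to 0.16 for Pgf, -0.14 to 0.25 for Angptl4 and -0.017 to 0.0081 for Nrp2. On plastic they were -0.33 to 0.18 for Vegfc, -0.011 to 0.30 for Pgf, -0.14 to 0.22 for Angptl4, -0.14 to 0.095 for Nrp1 and -0.053 to 0.031 for Nrp2. For the difference between the substrates they were -0.027 to 0.25 for Vegfa, -0.066 to 0.15 for Vegfb, -0.27 to 0.23 for Vegfc, -0.19 to 0.21 for Angptl4 and -0.036 to 0.048 for Nrp2. Groups of 3 libraries and, for Angptl4, counts as low as 20 limit what these comparisons can show.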
